A study of Homo sapiens with 2 samples.

Results

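The peaks described here are the high-scoring peaks of intermediate length in a map of RNA recovered with the transcription factor GATA2. They were chosen by 2 measured values of the deposited peak list, a score above 100 and a length of at least 500 and under 2000 bp. The rule found 218 of 2692 peaks (8.10%). They are 218 of the 1664 peaks in this length range, or 13.1%, and 218 of the 431 peaks of any length that scored above 100. The other 1446 peaks of the same length range, with a score of 100 or less, served as the comparison.

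The series holds 1 HA immunoprecipitate and 1 input library, both from K562 cells, an established chronic myelogenous leukaemia line, that carry a GATA2 transgene. Both received doxycycline (1 µg/mL, 5 hours) and 4-thiouridine (100 µM, 24 hours), a nucleoside that crosslinks RNA to nearby protein under 365 nm light, here given at 0.3 J/cm2. The library was a modified form of seCLIP, in which crosslinked RNA is trimmed, precipitated with the protein and sequenced. The promoter of the transgene and whether the line is 1 clone are not stated, and a peak list has no expression values against which the label K562 could be checked.

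GATA2 is a zinc finger factor that binds DNA and maintains blood stem and progenitor cells. CLIP libraries of any protein also recover RNAs that are very abundant in every cell, among them ribosomal RNA, the 7SK and 7SL RNAs, small nucleolar RNAs and transfer RNAs. Many of these are made from several near-identical gene copies, and their genomic copies and pseudogenes lie on many chromosomes. A read from such a family, or from a gene in a segmental duplication, can match several positions equally well, so a peak there need not mark the copy from which the RNA came. The labels do not say how such reads were placed.

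All values come from the 1 immunoprecipitate, so there is no replicate check and no test between conditions. Read depth is unknown. The scores are the authors' own, on a scale that the file does not state, and describe peaks only within this list. Positions are on hg19 and counted from 1. Shares carry 95% Wilson intervals and differences between shares carry 95% Newcombe intervals. These cover counting error only, and peaks that lie together are not independent. Overlap of separate intervals does not show that the shares are equal.

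The score and length of the members describe the rule and support nothing. The lowest member scored 100.06 and the highest 623.95, around a median of 131 and quartiles of 111 and 169. A score above 110 was reached by 171 members, above 150 by 74, above 200 by 34, above 300 by 6 and above 400 by 4. Members were 500 to 1983 bp long, at a median of 942 bp, against a median of 910 bp in the comparison. Across the 218 members, score and length had a Spearman's rho of -0.03, and across the 1446 comparison peaks 0.01, both given as descriptions. Of the peaks under 1000 bp in this range, 124 of 998 were members (12.4%), and of those from 1000 bp upwards 94 of 666 (14.1%). A score above 100 was also reached by 120 of 650 peaks under 500 bp (18.5%, interval 15.7% to 21.6%) and by 93 of 378 peaks of 2000 bp or more (24.6%, interval 20.5% to 29.2%). For the range of this rule the share was 13.1% (interval 11.6% to 14.8%).

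**Figure D1:**
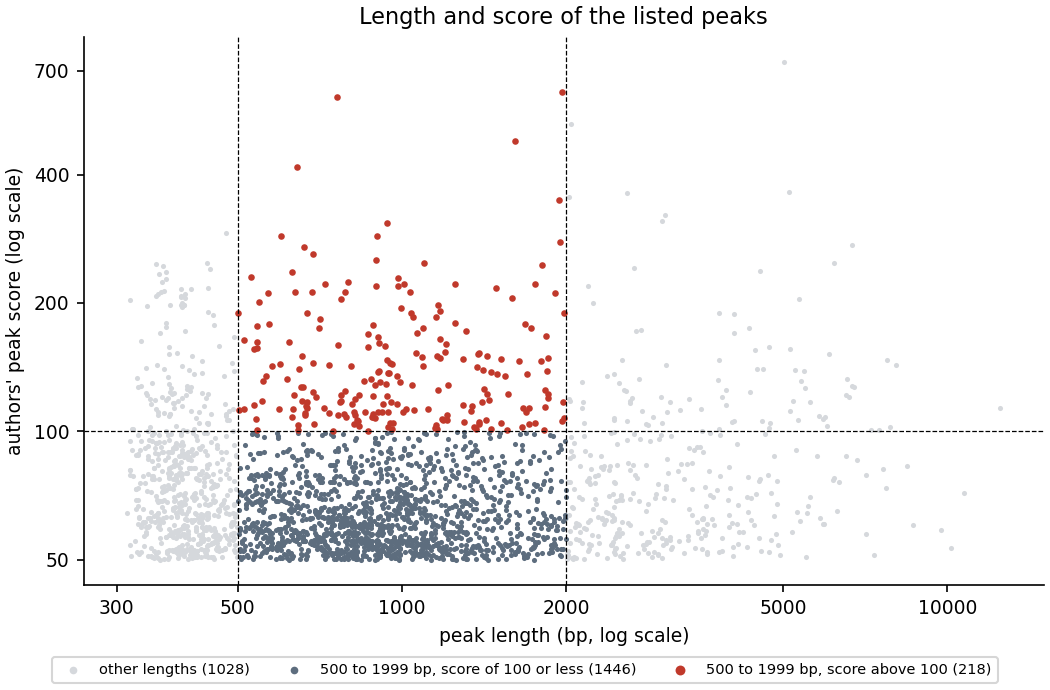
Each point is 1 of 2692 peaks, with its length in bp on the x axis and the authors' score on the y axis, both on log scales. The dashed lines mark the rule, and the 218 members fill the upper middle field without a visible trend of score with length.

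Scores just around the threshold were close together. The members with the lowest scores were on chromosome 11 from 16995722 (100.06), on X from 106396155 (100.43), on chromosome 1 from 46269327 (100.55), on X from 77009168 (100.59) and on chromosome 1 from 92108076 (100.66). Just outside it were peaks on chromosome 5 from 68463728 and on chromosome 7 from 91708429, both at 99.84, on chromosome 2 from 232577152 (99.47), on X from 39646027 (99.38) and on chromosome 16 from 21487205 (99.31). The shortest member was the 500 bp peak on chromosome 10 from 13259269, with a score of 188.97. The nearest high-scoring peak below that bound, on chromosome 18 from 77772839, had 493 bp and a score of 166.39. The longest member, 1983 bp on chromosome 1 from 146674545, scored 189.82, and the nearest high-scoring peak above the bound, 2024 bp on chromosome 5 from 43494584, scored 119.34.

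The 20 members with the highest scores, from 221.62 to 623.95, lay on 13 chromosomes. Of these, 15 had no other listed peak within 100 kb (75%, interval 53.1% to 88.8%), against 121 of all 218 members (55.5%, interval 48.9% to 61.9%) and 1421 of all 2692 peaks (52.8%, interval 50.9% to 54.7%). The first interval overlaps the others. Among the other 198 members, 53 (26.8%, interval 21.1% to 33.3%) had a neighbour within 10 kb, against 10.0% (interval 2.79% to 30.1%) of the 20 highest, and these intervals overlap. Of the 20 highest, 5 fell into windows listed for duplicated sequence or abundant RNA genes (25%, interval 11.2% to 46.9%), and 3 of these 5 lay in windows for copies of ribosomal RNA that were listed with these peaks known. Leaving out those windows, the count was 2 of 20 (interval 2.79% to 30.1%), against 49 of the other 198 members (24.7%, interval 19.3% to 31.2%), and the intervals overlap.

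The highest-scoring member was a 1966 bp stretch of chromosome 9, 135894811 to 135896776, that scored 623.95. Its nearest listed peak was 90466 bp away and scored 59.64. The next was the 761 bp peak on X from 108297343 to 108298103, with a score of 606.61 and its nearest listed peak 1900439 bp away. The third lay on Y from 10035327 to 10036938, with a score of 478.83, and a second member followed it after a gap of 582 bp. The fourth, on chromosome 1 from 91852515 to 91853156, scored 417.26 over 642 bp. These peaks on X, Y and chromosome 1 lie in windows listed for copies that resemble ribosomal RNA, the structural RNA of the ribosome.

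The fifth and sixth members by score lay outside all listed windows. The first, on chromosome 7 between 22549740 and 22551681, scored 348.35, and the second, on chromosome 8 between 70601917 and 70602857, scored 307.8. The latter was 2703250 bp from its nearest listed peak. The seventh, on chromosome 6 from 52860416 to 52861016, scored 287.68 over 601 bp and fell into the window of the 7SK RNA gene, whose RNA holds the transcription elongation factor P-TEFb in an inactive complex. It was the sole listed peak in that window.

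Ranks 8 to 20 held lower scores at a closer spacing of values. On chromosome 12 a 900 bp peak from 63359081 scored 286.63, and on chromosome 5 a 1950 bp peak from 14651533 scored 277.41. Chromosome 7 gave a second peak, from 137198563, with a score of 270.45. Chromosome 9 gave a further one, from 79186538, with 260.43. Peaks on chromosome 10 from 98510023, on chromosome 11 from 85194787 and on chromosome 1 from 96912445 scored 251.7, 247.58 and 245.93. On chromosome 17 a 628 bp peak from 33477857 scored 236.76, and on chromosome 19 a 530 bp peak from 36066498 scored 230.07. The seventeenth, at 228.58, belonged to a group on 17p11. The last 3 were on chromosome 1 from 108112818, on chromosome 5 from 71146488 and on chromosome 8 from 97242823, with scores of 224.47, 221.8 and 221.62. The next member by score stood at 221.55, so this list ends without a gap.

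Members were found on all 24 chromosomes that held peaks. Chromosome 1 held 34 members, chromosome 17 held 18, chromosomes 5 and 12 held 14 each, chromosome 11 held 12, and chromosomes 18 and 22 held 1 each. Set against the peaks of the same length on each chromosome, chromosome 17 had a high-scoring share of 21.7% (18 of 83, interval 14.2% to 31.7%), above the 13.1% of all chromosomes. Next came chromosome 20 with 18.8% (6 of 32, interval 8.89% to 35.3%), chromosome 12 with 17.5% (interval 10.7% to 27.3%) and chromosome 11 with 16% (interval 9.40% to 25.9%). The lowest shares were 3.85% on chromosome 22 (1 of 26, interval 0.682% to 18.9%) and 4.00% on chromosome 18 (1 of 25, interval 0.710% to 19.5%). Chromosome 17 was the only chromosome besides Y whose interval lay wholly above 13.1%, and on Y 2 of 3 peaks were members. Without peaks in the listed windows, chromosome 17 had 9 of 67 (13.4%, interval 7.23% to 23.6%), close to the 11.5% of all peaks of this length outside the windows. Chromosome 1 went from 15.4% (34 of 221) to 10.2% (16 of 157), and chromosome 16 from 11.1% (10 of 90) to 5.41% (2 of 37).

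**Figure D2:**
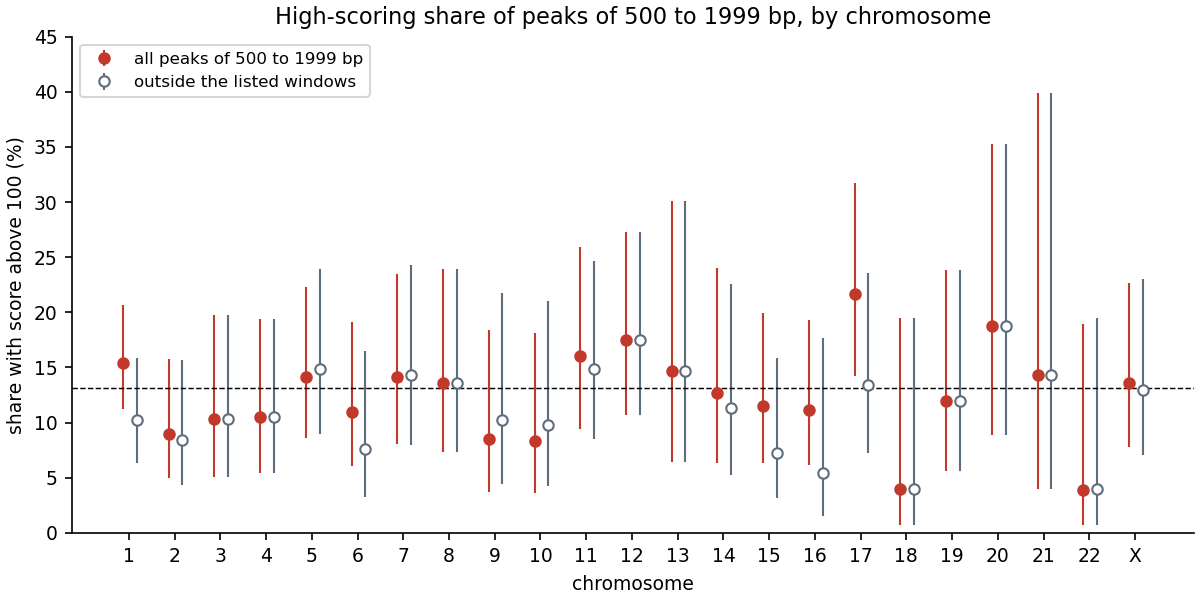
The share of peaks of at least 500 and under 2000 bp that scored above 100 is shown for chromosomes 1 to 22 and X, with 95% Wilson intervals; Y, with 3 peaks, is left out. Filled points use all such peaks, open points those outside the listed windows, and the dashed line is the share over all chromosomes, 13.1%; chromosome 17 falls from 21.7% to 13.4%.

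A member was somewhat more often close to another listed peak than a comparison peak was. Within 10 kb, 55 of 218 members had such a neighbour (25.2%, interval 19.9% to 31.4%), against 264 of 1446 comparison peaks (18.3%, interval 16.4% to 20.3%) and 20.2% of all peaks. The difference was 6.97 percentage points (interval 1.28 to 13.4). Within 1000 bp the shares were 8.26% and 4.84%, a difference of 3.42 points (interval 0.201 to 7.94). Within 100 kb they were 44.5% and 44.4%, a difference of 0.0971 points (interval -6.84 to 7.20). The median gap to the nearest peak was 155217 bp for members and 146614 bp for the comparison. Within 200 bp the shares were 1.38% and 0.830%, a difference of 0.546 points (interval -0.550 to 3.16), which spans 0 as it does at 100 kb.

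Split by the listed windows, the difference at 10 kb was not seen outside them. There, 20 of 163 members (12.3%, interval 8.09% to 18.2%) and 162 of 1252 comparison peaks (12.9%, interval 11.2% to 14.9%) had a neighbour within 10 kb, a difference of -0.669 points (interval -5.30 to 5.51). Inside the windows the shares were 35 of 55 members (63.6%, interval 50.4% to 75.1%) and 102 of 194 comparison peaks (52.6%, interval 45.6% to 59.5%), a difference of 11.1 points (interval -3.85 to 24.5). Both kinds of peak were thus crowded inside the windows, and 25.2% of the members lay there against 13.4% of the comparison peaks, a difference of 11.8 points (interval 6.20 to 18.2).

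The close neighbours of members often scored highly themselves. Of the 55 nearest neighbours within 10 kb, 25 scored above 100 (45.5%, interval 33.0% to 58.5%), against 39 of 264 for the comparison (14.8%, interval 11% to 19.6%). The difference was 30.7 points (interval 17.4 to 44.2). Their median score was 93.2, against 69.8. A member was itself the nearest neighbour in 20 of the 55 cases, a comparison peak in 21, a peak under 500 bp in 8 and a peak of 2000 bp or more in 6. Inside the listed windows 20 of 35 such neighbours scored above 100 (57.1%, interval 40.9% to 72.0%), and outside them 5 of 20 (25%, interval 11.2% to 46.9%), against 14.7% and 14.8% for the comparison. Members that are each other's nearest neighbour each count in these shares. The score is also the value that chose the members. The intervals do not allow for such pairs or for several members at the same place. These shares are descriptions and support nothing.

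Counted as loci, with members up to 100 kb apart joined, the 218 members formed 194 loci. Of these, 177 held 1 member, 14 held 2 and 3 held at least 3. Comparison peaks, which are more numerous, formed 1163 loci, of which 979 held 1 peak, 136 held 2 and 48 held at least 3. A locus was shared by 41 members (18.8%) and by 467 comparison peaks (32.3%), so grouping was not particular to members. Of the 14 pairs of members, 10 lay in the listed windows, and the same share was not computed for pairs of comparison peaks.

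For the windows, 55 rounded stretches of hg19 were listed by hand from general knowledge, 22 around known segmental duplications (91.2 Mb in all) and 33 around genes or copies of abundant RNAs (7.60 Mb). A window also holds unique sequence, and a peak in it was not assigned to a gene. All windows were listed with earlier results of these data known, so their counts are descriptions. Those for ribosomal RNA copies were listed with the strongest peaks already known. Of the 218 members, 36 lay in a duplicated window, 19 in an RNA window and 163 (74.8%) in neither. Outside every window were also 86.6% of the comparison peaks and 84.9% of all peaks.

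Members were more often in RNA windows than comparison peaks were. The shares were 19 of 218 (8.72%, interval 5.65% to 13.2%) and 27 of 1446 (1.87%, interval 1.29% to 2.70%), against 3.08% of all peaks, and the difference was 6.85 points (interval 3.67 to 11.4). Of the 27 comparison peaks, 19 came from the 6p22 window, the widest. Without it, 15 members (6.88%) and 8 comparison peaks (0.553%) remained. Without the 5S and rRNA-like windows, 10 members (4.59%, interval 2.51% to 8.24%) remained against the same 27 comparison peaks (1.87%), so that these windows gave 9 of the 19 members. The difference was 2.72 points, for which no interval was computed. The intervals of these shares overlap, which does not decide whether the shares differ. Of the 37 peaks of this length in the RNA windows that were left, 10 scored above 100 (27.0%, interval 15.4% to 43.0%), against 163 of 1415 outside all windows (11.5%, interval 9.96% to 13.3%).

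By class of score, the share in RNA windows was 3.45% for members up to 120 (3 of 87), 10.5% from there to 150 (6 of 57), 10.0% from there to 200 (4 of 40) and 17.6% above 200 (6 of 34, interval 8.35% to 33.5%). Without the 5S and rRNA-like windows, of which the latter were listed with the top peaks known, the same 4 classes had 3.45%, 5.26%, 2.50% and 8.82% (3 of 34, interval 3.05% to 23%), with overlapping intervals. Below the threshold it was 1.48% for scores up to 60 and 3.54% for scores above 80. For duplicated windows the share was 9.17% for scores up to 60, 15.2% for scores above 80 and up to 100, and 14.7% above 200. For neighbours it was 14.9%, 26.3% and 20.6% in the same classes, so the comparison peaks just below the threshold were as crowded as the members, with overlapping intervals.

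**Figure D3:**
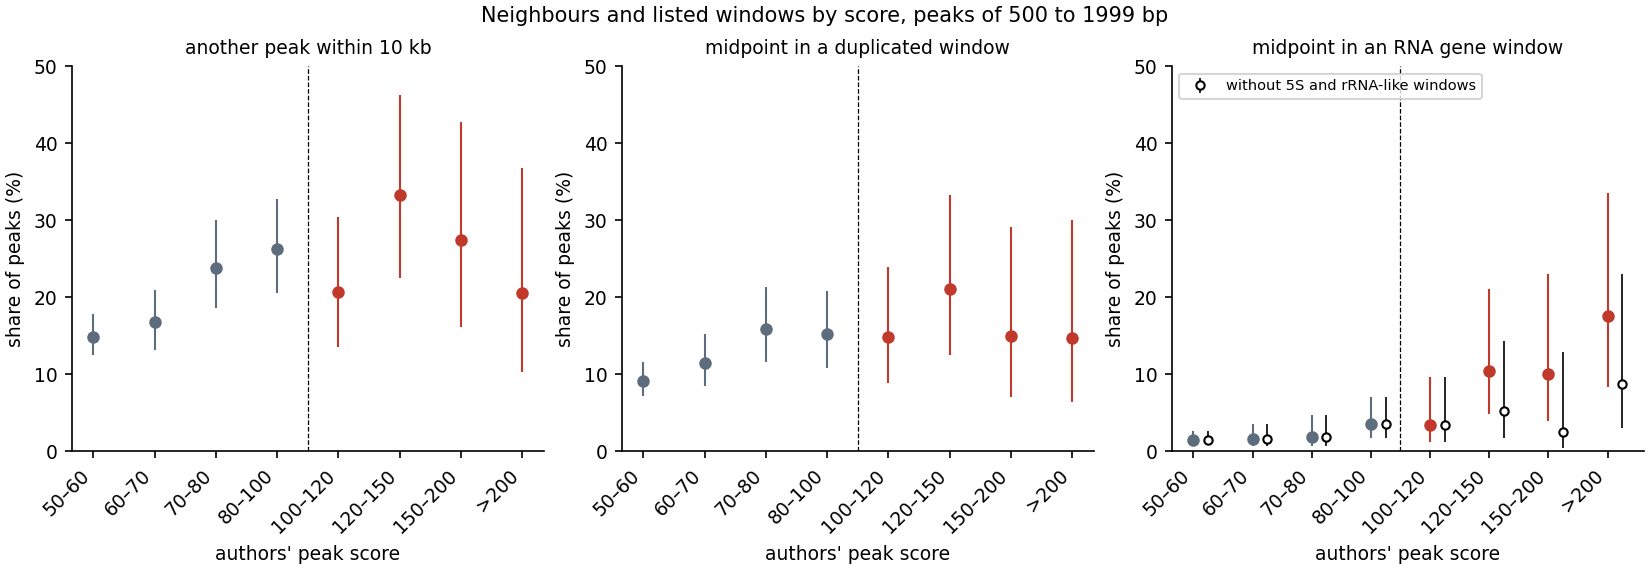
For peaks of at least 500 and under 2000 bp in 8 classes of score, the 3 panels show the share in percent with another peak within 10 kb, in a duplicated window and in an RNA gene window, with 95% Wilson intervals. Red points, right of the dashed line, are the members; open points leave out the 5S and rRNA-like windows, and above a score of 200 the share in RNA windows is 17.6% with them and 8.82% without.

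The window of the 5S ribosomal RNA array on 1q42, a tandem array of genes for the small RNA of the large ribosomal subunit, held 17 listed peaks, of which 5 were members. From left to right, with starts at 228745202, 228747983, 228749684, 228772570 and 228774812, they scored 147.19, 177.1, 137.33, 161.78 and 157.14. The other 12 peaks of this window were only 393 to 442 bp long and scored 190.11 to 215.93. All 5 members, 542 to 943 bp long, scored below all 12 shorter peaks, so that within this array the rule for length also parted the scores. The windows listed for rRNA-like copies on 1p22, Xq22 and Yp11 held 4 members and no comparison peak. The second member on Y, from 10037521 to 10038167, scored 139.79 over 647 bp, against 478.83 for its neighbour. The window on 2q21 held 2 peaks of 2000 bp or more, both above 100, and no member.

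The window of the 7SL genes on 14q21, whose RNA is the core of the signal recognition particle, held a 569 bp member from 50329003 with a score of 211.25 and 1 comparison peak. The window of SNHG1 on 11q12, a host gene of small nucleolar RNAs, held a 1165 bp member from 62608122 with a score of 125.02. Whether this member overlaps SNHG1 or another gene of the window was not tested. The windows of NEAT1 and MALAT1, RMRP, RPPH1, the SNORD115 and SNORD116 arrays and the U4 genes held no listed peak of any length. The window of the U2 genes held 1 peak under 500 bp with a score of 100 or less. Of the 11 windows for copies of mitochondrial RNA, none held a member and 1 held a comparison peak.

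Transfer RNA genes are transcribed by RNA polymerase III and lie in clusters. The cluster window on 1q23 held 2 members among 7 peaks of this length, from 161424079 to 161425485 and from 161431490 to 161432890, with scores of 139.19 and 116.98. Their lengths, 1407 and 1401 bp, differed by 6 bp. The cluster window on 17p13 held a 704 bp member from 8076512 with a score of 174.54. The gene looked up for that window was SNORD118, of a small nucleolar RNA. Whether the member overlaps it or a transfer RNA gene was not tested. The windows of transfer RNA genes on 16p13, 14q11 and 5q35 held no listed peak. On 6p22, where genes for replication-dependent histones and for transfer RNAs are interleaved, 4 of 23 peaks of this length were members (17.4%, interval 6.98% to 37.1%), close to the 13.1% of the whole list. Those starting at 26198760, 27113880, 27774994 and 27781955 scored 113.18, 122.04, 211.63 and 101.

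**Figure D4:**
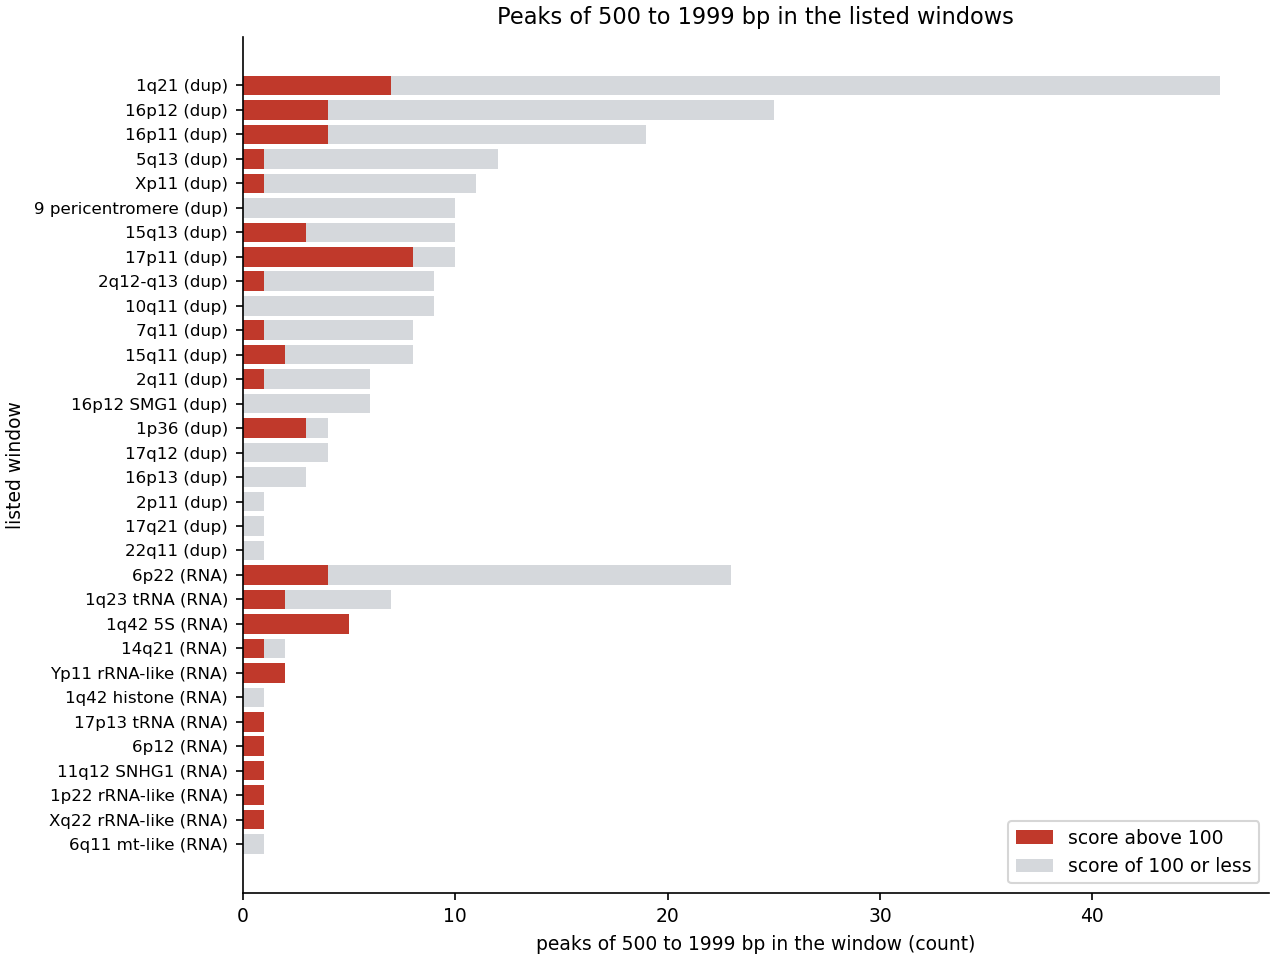
Bars count the peaks of at least 500 and under 2000 bp in each listed window that held any, with members in red and comparison peaks in grey; dup marks a duplicated window and RNA an RNA gene window. The 17p11 and 5S windows consist mostly or wholly of members (8 of 10 and 5 of 5), whereas 7 of 46 peaks in the 1q21 window are members.

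Duplicated windows held 16.5% of the members (interval 12.2% to 22%) and 11.5% of the comparison peaks (interval 10.0% to 13.3%), against 12% of all peaks. The difference was 4.96 points (interval 0.285 to 10.7). The window on 17p11, around the repeats of the Smith-Magenis region, had 8 members among 10 peaks of this length (80%, interval 49.0% to 94.3%). Without it the shares were 12.8% (28 of 218, interval 9.04% to 17.9%) and 11.4% (165 of 1446). The difference was 1.43 points, for which no interval was computed. This alternative was added after the counts per window were seen, and it keeps the 1p36 window described below.

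Of the other duplicated blocks, most had intervals that include the background of 13.1%, and the small one on 1p36, with 3 members among 4 peaks, did not (75%, interval 30.1% to 95.4%). The 1q21 window, which holds the NBPF and NOTCH2NL families, had 7 members among 46 peaks (15.2%, interval 7.57% to 28.2%). The 4 windows on 16p with the NPIP and SMG1 families had 8 among 53 (15.1%, interval 7.85% to 27.1%), the highest of them at 217.38 on chromosome 16 from 30288373. The 3 windows on 15q with GOLGA8 and HERC2 copies had 5 among 18 (27.8%, interval 12.5% to 50.9%), the highest at 205.46 from 20658344. The 5q13 window with SMN1 and SMN2 had 1 among 12, from 70362645 with a score of 106.68, and the GAGE window on Xp11 had 1 among 11, from 49197568 with a score of 111.94. The members on 1p36, where NBPF1 and copies of the U1 small nuclear RNA gene lie, scored from 117.21 to 134.6. The pericentromeric window of chromosome 9 and the 10q11 window had 0 among 10 and 0 among 9, which allow shares of up to 27.8% and 29.9% by the same interval.

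Groups of 3 or more members within 100 kb of one another occurred at 3 places, of which the 5S array was one. On 17p11, 5 members stood between 18965225 and 19093561 with no other listed peak among them. From the left they scored 218.94, 212.11, 185.07, 191.94 and 228.58, over lengths of 985, 685, 1157, 1177 and 985 bp. The outermost members at both ends thus had the same length of 985 bp and the highest scores of the group. The left pair was separated by 555 bp, the right pair by 74 bp, and the middle member lay 47341 bp from the left pair. As background, this band carries genes of the U3 small nucleolar RNA, which guides early processing of ribosomal RNA, and the RefSeq gene table of GRCh38 lists 5 SNORD3 genes on chromosome 17. Overlap of the peaks with these genes was not tested, for want of an annotation of hg19, and the genes were named after the scores were seen. A further pair in the same window, from 19349011 and from 19355225, scored 164.93 and 121.5, and the eighth member, from 17286446, scored 120.76.

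The third group lay on chromosome 11, outside every listed window. Its 3 members, from 5269214, 5270131 and 5275018, scored 163.44, 189.41 and 174.57 over 514, 1040 and 1092 bp. A comparison peak from 5273646, with a score of 87.43, stood between the second and the third, and another from 5290262 scored 96.21. By general knowledge of the assembly, this part of chromosome 11 carries the beta-globin gene cluster, whose fetal and embryonic genes K562 cells are known to express. Assignment of the peaks to single globin genes was not tested.

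**Figure D5:**
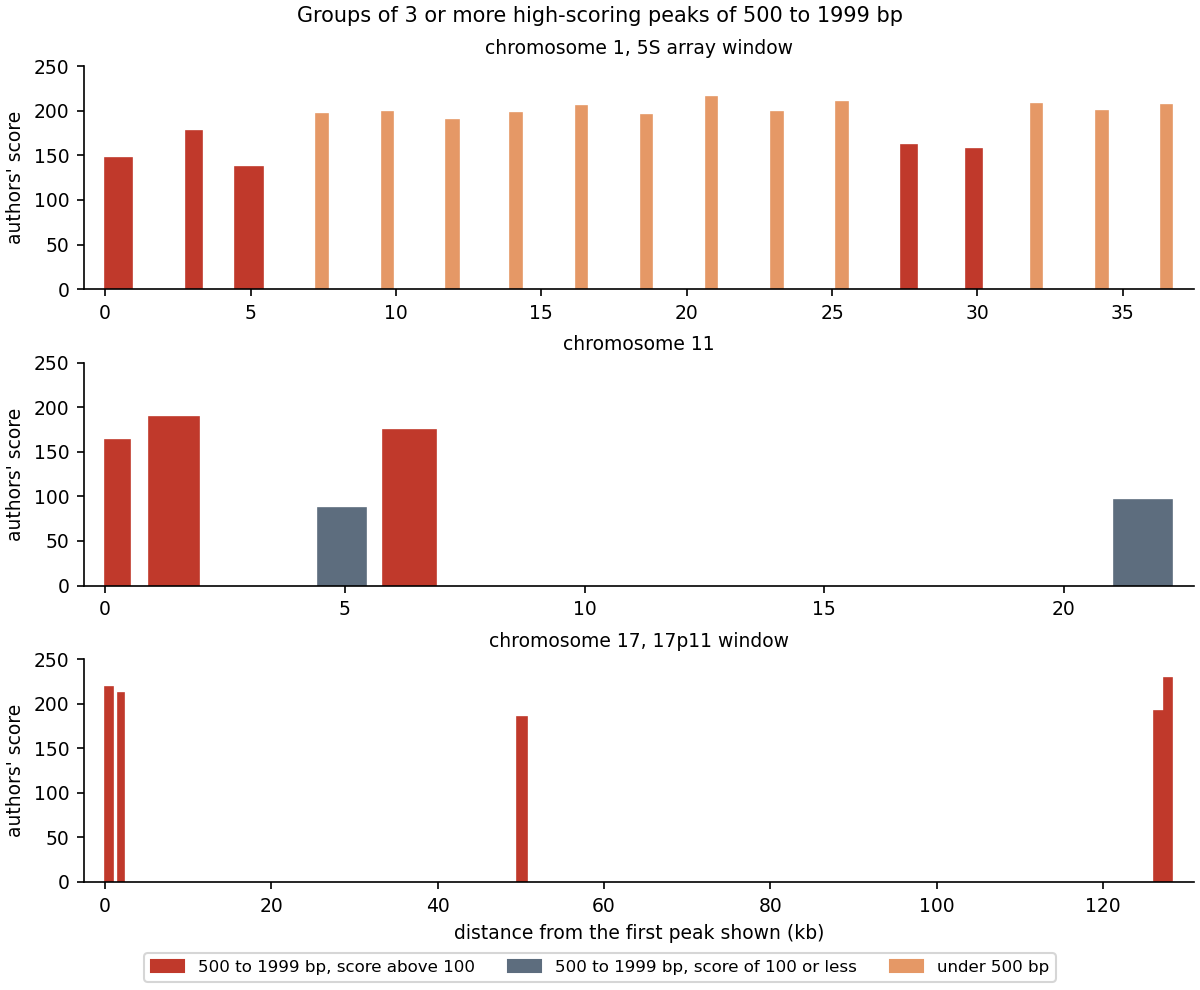
Each bar is 1 listed peak, with its distance in kb from the first peak shown on the x axis, its length as the width of the bar and the authors' score as its height. In the top panel the 5 members score 137.33 to 177.1, below the 12 shorter peaks at 190.11 to 215.93; the middle and bottom panels show the 3 members on chromosome 11 and the 5 on 17p11.

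Some neighbouring members had nearly the same length. Of the 41 members with another member within 100 kb, 6 had a nearest member whose length was within 1% of their own (14.6%, interval 6.88% to 28.4%), against 11 of 467 comparison peaks and their nearest comparison peak (2.36%, interval 1.32% to 4.17%). The 6 were the transfer RNA pair on 1q23, the 543 and 542 bp peaks of the 5S array, and a pair on chromosome 14 outside the listed windows. That pair, from 35015916 and from 35024935, measured 665 and 664 bp and scored 109.16 and 110.38. The measure of 1% was chosen after the positions were seen, and each pair counts from both sides. Over all such neighbours, the median difference in length was 400 bp for members and 288 bp for the comparison. By that median, neighbouring members were not more alike in length than neighbouring comparison peaks. Whether the sequences at these pairs are alike was not tested.

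Members outside the listed windows made up the larger part and were more scattered. These 163 members had a median score of 128, against 132 for the 36 in duplicated windows and 157 for the 19 in RNA windows. Their median gap to the nearest listed peak was 224913 bp, against 5615 and 5973 bp in the 2 kinds of window. The windows were listed with earlier results of these data known, so this contrast is a description. It was not particular to members: 52.6% of comparison peaks inside the windows and 12.9% outside had a neighbour within 10 kb. Besides the group on chromosome 11, 4 pairs outside the windows lay within 100 kb: the pair on chromosome 14 just described, a second one on that chromosome from 102449346 and 102452036 (131.57 and 115.53), one on chromosome 15 from 41961040 and 41988267 (152.07 and 160.69) and one on chromosome 17 from 38561864 and 38568786 (114.63 and 152.6).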

How the data were processed

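Reads were processed by the authors. The genome build was hg19, and the tools bedtools, SAMtools, Bowtie2, cutadapt and UMI-tools 1.0.0 are named without their roles, per the submitters' processing notes. The peak names in the deposited file begin with MACS. The threshold and control of the peak calling, and the handling of reads with several positions, are not stated. The deposited file holds positions in bp and a score per peak, the authors' value of unstated scale with a minimum of 50. Input values were not analysed here.

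Gaps were measured between peak edges, to the nearest listed peak of any score. A peak was counted in a window by its midpoint. Window bounds were rounded to 0.1 Mb, and for 45 of the 55 windows 1 named gene was looked up in the RefSeq table of GRCh38. All 45 lay on the window's chromosome, and no coordinates of that table were used. Peaks were not assigned to genes and no sequence is shown, since no genome of hg19 was used.

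Named are the 20 highest-scoring members, those at the bounds of the rule, groups of at least 3 members, and members in RNA windows. Other peaks in duplicated windows, pairs and the nearly equal lengths were picked after their values were seen. The members, windows and measures were chosen with earlier results of these data known. With 1 library there was no test, and intervals cover counting error only. The gap, window and locus counts were tested on simulated data. Computation used Python 3.11.15 with scipy 1.17.1, pandas 2.3.3 and numpy 2.4.6, and matplotlib 3.10.9 drew the figures.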

Additional observations from a re-analysis of the deposited data

How the results depend on the processing

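The share of members with a listed peak within 10 kb, 25.2%, exceeded that of the comparison under 8 of 9 alternatives, which share peaks and are not independent. It was 18.0% with members within 100 kb counted as 1 locus (comparison 12.2%) and 8.26% at 1000 bp (comparison 4.84%). At 100 kb it was 44.5%, nearly the same as the comparison (44.4%). Where the neighbour had to score above 100, the value of the rule, it was 15.6% (comparison 5.05%). Without peaks in the windows it was 12.3%, where the comparison had 12.9% and the direction turned. Higher or lower thresholds of score and narrower length ranges gave 24.2% to 26.6%. The share in duplicated windows, 16.5%, stayed above the comparison under 8 of 8 alternatives. It was 10.1% with the windows on 1q21, 5q13, 15q, 16p and Xp11 alone (comparison 8.16%). The others gave 12.8% to 19.1%, the lowest of them without the 17p11 window (comparison 11.4%). The share in RNA windows, 8.72%, stayed above the comparison under 8 of 8 alternatives. It was 13.5% for scores above 150 and 4.59% without the 5S and rRNA-like windows, an alternative added after seeing the data (also by class of score and for the 20 highest members), as was leaving out 17p11. Chromosome 17, at 21.7% (interval 14.2% to 31.7%, other chromosomes 12.7%), had 13.4% without peaks in the windows (7.23% to 23.6%, others 11.4%), 19.0% as loci (11.2% to 30.4%, others 14.7%) and 30.1% at a score above 80 (21.3% to 40.7%, others 24.7%). Chromosome 1 had 10.2% without them (other chromosomes 11.7%) and 27.6% at a score above 80, which by construction takes in more peaks. Unless construction gives it, the cause was not tested. Precision is limited throughout by unknown depth and a single library. No paired analysis was possible because the input and the immunoprecipitate are single libraries.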
